A study of Mus musculus with 7 samples.

Results

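The cytosolic ribosomal protein genes are described here across sorted cells of mouse mammary tumours and of blood. Members were chosen by symbol: Rpl or Rps followed by a number and at most an a, x, y or l and further digits, together with Rpsa, Rplp0, Rplp1 and Rplp2, and without pseudogenes. The rule found 83 of the 11753 genes of the larger experiment, 50 of the large and 33 of the small subunit. The cells came from mice with the polyoma middle T (PyMT) transgene, a model of breast cancer in which an oncogene drives tumours of the mammary epithelium. In the larger experiment, single cells of 4 libraries were sorted on E-cadherin, the adhesion protein of epithelia: TEpos (from the solid tumour, positive), TEneg (from the solid tumour, negative), BEneg (labelled as circulating tumour cells, negative) and, in library 1 alone, BEpos (labelled as circulating tumour cells, positive). These 4 names are short forms used in this text and in its plots. Each library was prepared from 24 wells per population. An earlier experiment, called experiment (i), held 3 libraries of 96 wells with Ecad positive bulk tumour cells. All groups share the PyMT model, no treatment is named, and no source used here gives strain, age or the number of animals. The labels do not tie the libraries to separate animals, and p-values therefore reflect the spread between libraries alone, which may be technical.

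The ribosome is built from a small subunit, which reads the mRNA, and a large subunit, which joins amino acids. Most of its proteins are needed in equal amounts, and the mRNAs of vertebrate ribosomal proteins start with a run of pyrimidines through which growth signals control their translation as a family. Ribosomal protein mRNAs are among the most abundant of growing epithelial cells and of lymphocytes, whereas mature neutrophils, which no longer divide, are known for little RNA and little protein synthesis.

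CEL-seq counts 1 tag at the 3′ end of each captured molecule, so levels were compared between genes without a length correction and are given as transcripts per 10000 transcripts of all mouse genes. Unless another scaling is named, log2 fold changes come from edgeR with TMM scaling between sums. They therefore need not equal the ratio of the levels printed beside them. Of 312 wells, 220 held at least 500 transcripts and were used (71 TEpos, 69 TEneg, 60 BEneg and 20 BEpos), with medians of 2064, 1603, 819 and 3803 transcripts. Wells were summed per library and population, and the sums held 27416 to 71894 transcripts for TEpos, 17189 to 109892 for TEneg, 11172 to 25379 for BEneg and 75125 for BEpos. The largest well, a TEneg well of library 2, held 55.7% of its sum. Of 96 well barcodes, 72 were used in all 4 libraries and each served the same population in all of them, so barcode and population cannot be told apart. In sums of wells, fewer cells of a type and less RNA per cell cannot be told apart. The epithelial list (9 of 9 genes measured) made up 0.425 to 0.686% of transcripts in TEpos, 0.181 to 0.407% in TEneg, 0.0653 to 0.135% in BEneg with Cldn7 at 0, and 0.00934% in BEpos with Krt19, Krt7, Cldn3 and Cldn7 at 0. The neutrophil list (8 of 8 genes measured) made up 4.57 to 10.4% of BEneg, 2.05% of BEpos with Csf3r and Ngp at 0, at most 0.379% of TEpos and at most 0.410% of TEneg. The lymphocyte list (8 of 8 genes measured) was at 0.395% in BEpos with all 8 genes present and at most 0.0449% in every other sum. The leukocyte list (7 of 8 genes measured) was at 0.677 to 1.24% in BEneg. It was at 0.952% in BEpos and at most 0.0727% in the tumour, with Ptprc at 0 in BEpos, TEpos and TEneg. The monocyte and macrophage list (8 of 8 genes measured) was at 2.15 to 3.64% in BEneg, at 0.518% in BEpos and at most 0.183% in the tumour. The luminal mammary and milk list (9 of 9 genes measured) was at 4.05 to 5.39% in TEpos and 2.10 to 3.97% in TEneg. It was at 0.457 to 0.962% in BEneg with Csn2 and Elf5 at 0, and some of it was seen in all 60 BEneg wells. In BEpos it was at 0.126% with Csn2, Csn1s1, Elf5 and Wap at 0. The blood cell lists above go against the label of a tumour cell for much of BEneg and BEpos, which are therefore called by their sort.

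Ribosomal protein transcripts took a large part of all transcripts in the tumour, a smaller one in BEneg and a larger one in BEpos. The share was 23.1, 23.5, 22.6 and 18.7% in TEpos of libraries 1 to 4 (21.98% ± 2.19, SD, n = 4). It was 20.5, 18.04, 20.4 and 12.5% in TEneg (17.9% ± 3.77, SD, n = 4) and 16.2, 15.03, 20.1 and 11.1% in BEneg (15.6% ± 3.71, SD, n = 4). Within every library the order was TEpos, TEneg, BEneg, with a mean difference of -4.11 percentage points for TEneg less TEpos, -2.29 for BEneg less TEneg and -6.40 for BEneg less TEpos, and library 4 was lowest in each population. The populations overlap across libraries, since TEpos of library 4 lies below 2 of the 4 TEneg sums. The share is a score over the members and was given no test. In BEpos it was 35.4% (95% Clopper-Pearson interval 35.02 to 35.71, counting error only), against 22.7 to 23.4, 20.1 to 20.9 and 15.7 to 16.6% for the intervals of TEpos, TEneg and BEneg in the same library.

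**Figure D1:**
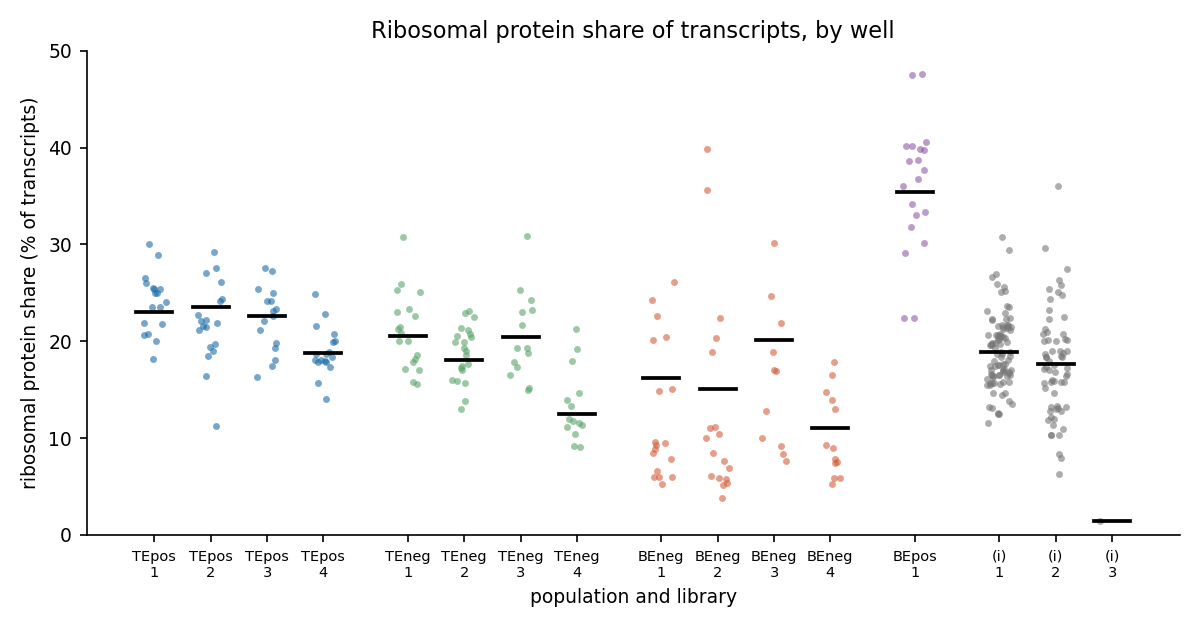
Percentage of a well's transcripts that came from ribosomal protein genes (vertical axis), for each used well of each population and library, with experiment (i) at the right; points are wells and black bars the share of the library's sum. The TEpos wells lie between 11.3 and 30.1%, while the BEneg wells spread from 3.76 to 39.9%.

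Within the family, transcripts were spread over many members. Rpl41, the shortest ribosomal protein, was highest at 62.6 transcripts per 10000 in the mean of the 12 sums of TEpos, TEneg and BEneg. It was followed by Rps3a1 at 58.6, Rps12 at 45.8, Rpl27a at 42.9, the stalk protein Rplp1 at 40.7 and Rpl4, which lines the exit tunnel of the large subunit, at 38.4. These 6 members gave 15.6% of all ribosomal protein transcripts and the top 20 gave 41.4%, around a median member of 23.6 per 10000. At the other end, 8 members were under 1 per 10000: Rps27, Rpl22, Rpl26, Rpl30, Rps4y2, Rpl39l, Rpl31 and Rpl10l. No member was without a transcript in the used wells, and 74 were found in each of the 12 sums. Low members were checked for copies: in the GENCODE transcripts of GRCm38, 51 of the 82 members with a transcript shared at least 1 window of 75 bases in their last 300 bases with another gene. Among members under 10 per 10000, 9 of 16 shared a window, and among the others 42 of 66. No source used here states the rule for reads that fit several genes, so values of members with copies are uncertain to that extent. Rps27 shared 100% of its windows (with Rps27rt), Rps12 93.8%, Rpl36 87.6%, Rpl27 81.4% and Rpl24 79.2%, while Rps9 shared 36.7%, Rps27l 13.3%, Rpl39 2.65%, and Rpl27a, Rps16 and Rpl31 0%. The check used 1 transcript per member, and its end need not be the one that was tagged. For Rpl31 that transcript had 1049 bases, of which 375 were coding. A value of 0% therefore does not show that the counted end is unique, and 51 may be an undercount.

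Members that have a close relative in the genome differed in which copy was seen. Rpl22l1, a paralog of Rpl22, was at 4.55 ± 0.975 per 10000 in TEpos (SD, n = 4) and 2.70 ± 2.001 in TEneg, with 1.90 ± 1.08 in BEneg and 6.44 in BEpos. Rpl22 itself was at 1.19 ± 0.507 in TEpos and 0.566 ± 0.476 in TEneg, and from blood at 0.415 ± 0.479 in BEneg and 0.667 in BEpos, so by these means the paralog was the higher copy. Rpl22 had few transcripts, with 3 in TEpos of library 1 and 5 in BEpos. Rpl22l1 shared 58.8% of its 3′ windows with other genes, and the part of counting in this order was not tested. In experiment (i) the order was the other way, with Rpl22 at 4.82 and 3.15 and Rpl22l1 at 1.35 and 0.573 in libraries 1 and 2. Rps27l, a paralog of Rps27 known as a p53 target, was at 9.999 ± 2.33 in TEpos and Rps27 at 1.97 ± 0.703. Rps27 was at 0.366 ± 0.291 in TEneg and 0.537 ± 0.420 in BEneg, and it did not pass the filter on low counts. Rpl7 was at 26.9 ± 5.21 in TEpos, 28.001 ± 4.90 in TEneg and 19.7 ± 4.68 in BEneg, against 1.23 ± 0.395, 1.81 ± 0.516 and 1.25 ± 0.452 for Rpl7l1, a related protein of ribosome assembly. Rpl10, which joins the large subunit late in its assembly, stood at 44.6 ± 1.204 in TEpos, 32.9 ± 7.16 in TEneg and 35.9 ± 6.34 in BEneg. Its relative Rpl10l, and Rpl39l, both known from the testis, were at 0.0353 and 0.0747 in the mean of the 12 sums.

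The promoters of the members that the comparisons of populations turn on are printed from 60 bases before to 30 bases after the RefSeq start (GRCm38.p6), since ribosomal protein genes are known for a pyrimidine run at that place. Capitals mark runs of at least 7 C or T within 20 bases of the start, read on the strand of the gene. The windows are chr7:3703981-3704070 for Rps9, chr7:109519135-109519224 for Rpl27a, chr7:28350629-28350718 for Rps16, chr16:55966215-55966304 for Rpl24, chr11:101442185-101442274 for Rpl27 and chr9:66946026-66946115 for Rps27l, all on the plus strand, and chrX:37085193-37085282 on the minus strand for Rpl39.
Rps9: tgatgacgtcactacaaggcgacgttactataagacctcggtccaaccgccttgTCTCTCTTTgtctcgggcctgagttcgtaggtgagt
Rpl27a: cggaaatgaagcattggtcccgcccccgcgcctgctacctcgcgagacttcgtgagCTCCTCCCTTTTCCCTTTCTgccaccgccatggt
Rps16: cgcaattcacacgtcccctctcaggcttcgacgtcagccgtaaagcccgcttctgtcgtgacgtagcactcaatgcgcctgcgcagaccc
Rpl24: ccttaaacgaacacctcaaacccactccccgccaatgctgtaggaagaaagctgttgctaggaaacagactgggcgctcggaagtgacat
Rpl27: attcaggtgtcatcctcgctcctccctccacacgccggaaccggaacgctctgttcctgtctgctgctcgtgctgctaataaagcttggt
Rps27l: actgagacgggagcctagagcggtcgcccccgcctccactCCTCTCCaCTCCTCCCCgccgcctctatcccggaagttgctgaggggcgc
Rpl39: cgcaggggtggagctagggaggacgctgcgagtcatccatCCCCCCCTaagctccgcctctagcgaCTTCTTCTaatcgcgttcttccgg

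Of these 7 windows, Rps9, Rpl27a, Rps27l and Rpl39 hold such a run, the longest being 20 bases in Rpl27a, and Rps16, Rpl24 and Rpl27 hold none near the RefSeq start. In GENCODE the Rpl27 gene starts at chr11:101442298, past the printed window, and the Rps16 gene at chr7:28350652, outside the bases searched. Runs at those starts were not searched for. Over the family, 62 of 83 members had a promoter in the table, and 38 of them (61.3%) held a run, against 7430 of 27025 genes (27.5%). In the window of 250 bases before to 50 after the start, CTTTCC on the strand of the gene was in 25 members (40.3%, all genes 16.01%). On both strands, the ETS motif CCGGAAGT was in 12 members (19.4%, all genes 4.31%) and the YY1 motif AAGATGGC in 6 (9.68%, all genes 3.19%). A match describes these letters only.

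TEneg was compared with TEpos to ask how cells of the solid tumour that differ in E-cadherin differ in these genes. Of the 72 members tested, Rpl39 was lower in TEneg and 0 were higher, against 2.04% of all 490 tested genes lower and 4.9% higher (edgeR, adjusted p under 0.05). In all 13 alternatives 0 members were higher, and at an unadjusted p under 0.05 there were 11 members, all lower. The members as a group leaned down by a small amount: 63 of 72 log2 fold changes were below 0, with a median of -0.18 beside -0.01 over all genes. Rpl39, a very small protein at the exit tunnel, was at 34.7, 42.1, 33.4 and 22.1 per 10000 in TEpos and at 24.8, 23.7, 26.7 and 5.25 in TEneg. It was lower in TEneg of every library, though TEpos of library 4 lies below 3 of the TEneg values, and the log2 value was -0.61 (SE 0.18, edgeR adjusted p = 0.0300). The call was lost in 8 of 13 alternatives, with adjusted p from 0.000304 to 0.367, among them each fit that left out a library. Rps27l had the lowest fold change, -0.72, and was not called (adjusted p = 0.139), nor was Rpl23a, a docking site of nascent chain factors, at -0.49 (adjusted p = 0.0840). Beside these values, the endothelial list (6 of 8 genes measured) was at 0.144 to 0.318% in TEneg and 0.0256 to 0.0703% in TEpos, where Emcn was at 0. The basal list (6 of 8 genes) was at 0.110 to 0.799% in TEneg and 0.0202 to 0.0309% in TEpos, and the fibroblast list (4 of 7 genes) at 0.0438 to 0.123% and 0.0300 to 0.0548%. The luminal list (9 of 9 genes) was lower, at 2.10 to 3.97% against 4.05 to 5.39%. Across the 69 TEneg wells the ribosomal protein share had a Spearman correlation of -0.385 with the endothelial list and 0.0443 with the basal list, over points that share libraries and totals, and the part of these cells in the result was not tested. The highest values, also not called, were Rpl7 at 0.20, Rps12 at 0.13 and Rpl4 at 0.09, each of which changed sign under at least 1 other setting. Scaled to the ribosomal protein total, 0 members were called in either direction in TEneg (3 had an unadjusted p under 0.05, and 0 were called in 11 alternatives), beside 6.73% of all genes higher and 0.816% lower. Log2 fold changes across the 72 members rose with coding length (Spearman 0.519, TEneg less TEpos), a description over genes that share the same 8 sums. With transcript length, mean level and percent of shared 3′ windows the correlation was 0.356, 0.0995 and -0.0984. For BEneg less TEneg and BEneg less TEpos, coding length gave 0.00738 and 0.270, and transcript length 0.172 and 0.319. There mean level gave 0.404 and 0.383, and shared 3′ windows gave -0.246 and -0.260.

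BEneg wells were of unlike kinds, and the ribosomal protein share moved with neutrophil markers. The share of a well ran from 3.76 through a median of 9.52 to 39.9% in BEneg, against 11.3, 21.7 and 30.1% in TEpos and 9.08, 18.8 and 30.9% in TEneg. Below 10% lay 32 of 60 BEneg wells, 0 of 71 TEpos wells and 2 of 69 TEneg wells, while 4 BEneg wells were above 25%. Across the 60 BEneg wells, the ribosomal protein share and the share of the neutrophil list had a Spearman correlation of -0.859, and of -0.905, -0.886, -0.882 and -0.923 within libraries 1 to 4. These points share a library and a total, so the list was also taken out of the total, which gave -0.785, and -0.809 to -0.896 within libraries. In TEpos and TEneg, where no well reached 5% of neutrophil transcripts, the same correlation was -0.0802 and -0.0664. The monocyte and macrophage list, at a median of 1.60% of a BEneg well and at most 8.98%, had a correlation of 0.182 with the share, and the leukocyte list one of -0.637. BEneg wells with more transcripts also had a higher share (Spearman 0.475), and the part of depth in the result was not tested.

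**Figure D2:**
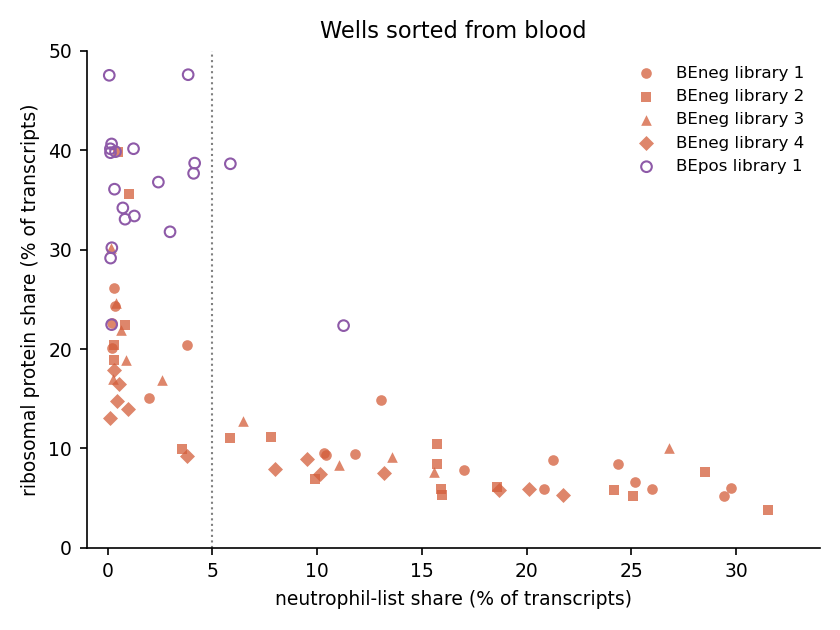
Ribosomal protein share of each BEneg well (filled, 1 symbol per library) and each BEpos well (open circles) against the share of the neutrophil list in the same well, both in percent of transcripts, with a dotted line at 5%. The 36 BEneg wells at or above the line lie between 3.76 and 14.9%, and the 24 below it between 9.28 and 39.9%.

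A limit of 5% neutrophil-list transcripts, chosen after the data were seen, put 36 BEneg wells at or above it and 24 below it, 6 of the latter in each library. At or above the limit the ribosomal protein share was 9.06, 7.45, 9.83 and 6.99% in libraries 1 to 4. Below it the share was 22.4, 24.9, 24.2 and 13.9%, in the range of the TEpos sums in library 1 and above it in libraries 2 and 3, and below it in library 4. The median well had 710 transcripts at or above the limit and 1357 below it, and at an equal depth of 500 transcripts a BEneg well showed a median of 31.5 members (41.5 at full depth), against 53 in TEpos (71), 50 in TEneg (68) and 60.5 in BEpos (73). Single members did not differ equally between the 2 kinds of wells. Rpl36 was at 5.05 per 10000 at or above the limit and 17.03 below it, Rpl24 at 6.85 and 17.5, and Rps16 at 16.98 and 52.4. Rps9 and Rpl27a stood closer, at 37.1 and 48.6 and at 36.1 and 55.4. These levels pool the wells of all libraries, and the order of the members did not hold in library 3. There Rps9 was at 32.97 and 56.2, Rps16 at 35.97 and 45.4 and Rpl24 at 14.9 and 20.1. With the 36 wells left out, the share in BEneg was above TEneg in 4 of 4 libraries. The mean was 3.46 percentage points, so the difference between BEneg and TEneg turned its direction. From TEpos the share in BEneg then differed by a mean of -0.652. It was above TEpos of the same library in libraries 2 and 3 and below it in libraries 1 and 4.

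BEneg was compared with TEpos to ask how the cells sorted from blood without E-cadherin differ from those of the tumour with it. Of the 72 members tested, 22 (30.6%) were lower and 3 (4.17%) higher in BEneg, beside 21.2% lower and 26.9% higher of all genes (edgeR, adjusted p under 0.05). The median log2 fold change was -0.33 over the members and -0.08 over all genes, with 58 of 72 below 0. By subunit, 17 of 41 large and 5 of 31 small subunit members were lower, while the 3 higher members, Rps9, Rps16 and Rps12, were all of the small subunit. Without the 36 neutrophil-rich wells, 6 members were lower (Rpl36, Rpl24, Rps27l, Rpl27, Rpl23a and Rpl23) and 6 higher (Rps9, Rps16, Rps12, Rps23, Rps29 and the stalk base protein Rplp0). Of all 417 genes tested in that fit, 147 were called in either direction. The median there was -0.04 over the members and -0.11 over all genes.

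Rps27l had the largest fold change of the 25 called members. It stood at 7.28, 12.1, 11.8 and 8.84 per 10000 in TEpos, at 6.75, 5.74, 4.95 and 3.50 in TEneg and at 2.04, 1.18, 3.37 and 4.49 in BEneg. The BEneg levels rest on few transcripts, such as 5 in library 1, against 43 in TEpos of that library. Every BEneg sum lies below every TEpos sum, and the log2 fold change was -1.71 (SE 0.38, adjusted p = 0.000483). Rpl36, of the large subunit, was at 31.3, 35.3, 21.9 and 16.9 in TEpos and at 9.46, 13.1, 17.99 and 5.38 in BEneg. It was lower in BEneg of every library although the ranges overlap, with -0.99 (SE 0.20, adjusted p = 0.000159). Rpl24, which forms a bridge to the small subunit, was at 28.3, 32.6, 26.7 and 23.97 in TEpos, 20.3, 22.6, 20.002 and 11.7 in TEneg and 10.7, 14.7, 18.7 and 5.38 in BEneg. The BEneg values lie below all TEpos values and 3 of the 4 TEneg values between, and the fold change was -0.92 (SE 0.19, adjusted p = 0.000206). Rpl27 fell from 36.3 ± 4.94 to 18.1 ± 3.87 (SD, n = 4; log2 -0.75, SE 0.17, adjusted p = 0.000637) and Rpl23a from 52.9 ± 4.26 to 25.04 ± 10.98 (-0.80, SE 0.19, adjusted p = 0.000801). These 5 genes were called lower in all 13 alternatives. Rps10, Rps2 at the mRNA entry site, Rpl28, Rpl6 and Rpl10a fell by 0.70, 0.64, 0.66, 0.61 and 0.66 with adjusted p from 0.00179 to 0.00724. Of the other lower members, 11 had values from -0.98 (Rpl38) to -0.46 (Rpl14). Rpl22l1, at -1.12, was not called (adjusted p = 0.0781).

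Rps9 moved the other way. This protein binds the ribosomal RNA early in assembly of the small subunit, and its gene lies at chr7:3703993-3706897 of GRCm38. Its level was 38.5, 31.7, 33.8 and 28.1 per 10000 in TEpos, 36.1, 27.1, 27.8 and 22.9 in TEneg and 40.6, 44.5, 49.7 and 39.8 in BEneg. Every BEneg sum lies above every tumour sum, and the log2 fold change against TEpos was 0.70 (SE 0.15, adjusted p = 0.000536). The call was lost with no filter on low counts (0.17, adjusted p = 0.953) and with limma on the mean share of wells (0.36, adjusted p = 0.0541). Rps9 kept its call without the neutrophil-rich wells, at 0.57 against TEpos (adjusted p = 0.00762) and 0.64 against TEneg (adjusted p = 0.00391). Rps16, which contacts the tRNA that carries the growing chain, and Rps12 were called higher by smaller values, 0.40 (adjusted p = 0.0361) and 0.42 (adjusted p = 0.0396). For these genes the share of transcripts was higher in BEneg in only 2 of 4 libraries, and each changed sign in 2 of 13 alternatives. In further alternatives the call was lost without a change of sign, in 4 for Rps12 and in 7 for Rps16. The value of Rps12 also rests on a 3′ end that is shared with 22 other genes. Among members with a promoter in the table, the pyrimidine run was in 2 of 3 higher, 9 of 17 lower and 22 of 33 uncalled members, and 3 higher members are too few to compare.

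BEneg was compared with TEneg to hold the E-cadherin sort fixed between blood and tumour. Of the 72 members, 3 were higher (Rps9, Rpl27a and Rps16) and 6 lower (among them Rpl36, Rpl7a, Rps2, Rpl3 and Rpl38), beside 23.7% higher and 17.1% lower of all genes. The median was -0.10 over members and -0.05 over all genes. This comparison shares its BEneg sums with the one against TEpos, so its calls are no separate support. Rps9 had the largest increase, 0.78 (SE 0.16, adjusted p = 0.00024), and was called in all 13 alternatives. Rpl27a, of the large subunit, was at 46.6, 31.6, 38.5 and 22.3 per 10000 in TEneg and at 49.7, 44.1, 56.7 and 34.3 in BEneg, higher in each library (0.59, SE 0.16, adjusted p = 0.00455). Rps16 was higher in 3 of 4 libraries (0.43, SE 0.16, adjusted p = 0.0330). Rpl36 fell by 0.75 (SE 0.20, adjusted p = 0.00405). Rpl7a, Rps2 and Rpl3, a core protein of the peptidyl transferase centre, fell by 0.50 to 0.52 (adjusted p = 0.0155, 0.0180 and 0.0319), and Rpl38 fell by 0.89 (SE 0.35, adjusted p = 0.0416). The call was lost in 10 of 13 alternatives for Rpl3, in 8 for Rps16 and Rpl38, in 6 for Rpl7a and Rps2 and in 3 for Rpl36 and Rpl27a. Without the neutrophil-rich wells 0 of these 6 were called lower, while the 3 higher members were called again among 7 higher members that included Rps23, Rplp0 and Rps29. Of all 417 genes tested in that fit, 137 were called in either direction. Not called were Rps27l at -0.99 (adjusted p = 0.0548), Rpl22l1 at -0.75 (adjusted p = 0.295) and Rps23 at 0.44 (adjusted p = 0.0908).

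**Figure D3:**
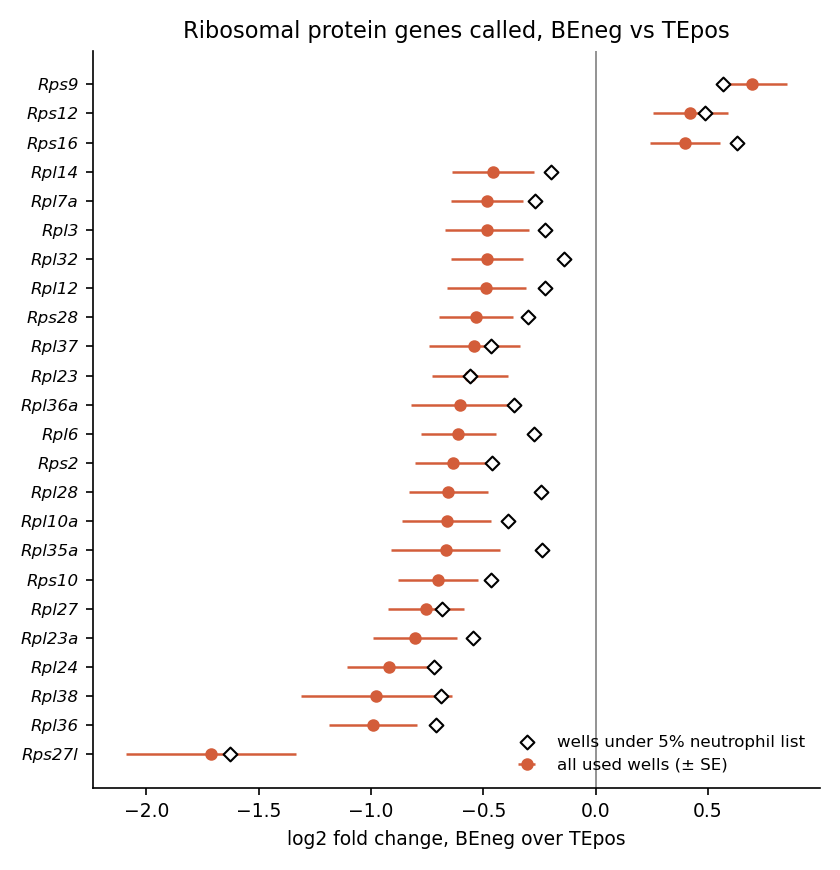
Log2 fold changes of BEneg over TEpos for 24 of the 25 members called, as filled points with SE bars for all used wells and as open diamonds for wells under 5% neutrophil-list transcripts. Rps9, Rps12 and Rps16 lie above 0 in both sets of wells, and the others shown lie below 0 in both.

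Scaling each library to its ribosomal protein total asked which members depart from the family. Against TEpos, 6 members were higher in BEneg (Rps9, Rps12, Rps16, Rpl27a, Rpsa and Rplp0) and 9 lower, beside 29% higher and 14.1% lower of all genes. Of these 15, 12 were also called on the all-transcript scale and Rpl27a, Rplp0 and Rpsa were not. Rps9 was at 0.91 relative to the family, Rps12 at 0.64 (adjusted p = 0.00160), Rps16 at 0.62 (adjusted p = 0.00153), Rpsa, the laminin receptor precursor on the small subunit's head, at 0.46 (adjusted p = 0.0262) and Rpl27a at 0.45 (adjusted p = 0.0155). Without the neutrophil-rich wells Rpsa was at 0.38 (adjusted p = 0.0910) and Rpl27a at 0.21 (adjusted p = 0.302), and their calls were lost in 5 and 4 of 11 alternatives. Rps27l, Rpl36 and Rpl24 fell by 1.49, 0.78 and 0.71. Of 11 alternatives, the call of Rps27l was lost in 1 (without library 2), that of Rpl36 in 1 (without library 1) and that of Rpl24 in 0. Against TEneg, 3 members were higher and 5 lower in BEneg, beside 23.7% higher and 16.7% lower of all genes, and all 8 were called on the other scale too. Rpl38 was not called on this scale (adjusted p = 0.0591).

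The subunits also differed in balance. The summed large subunit transcripts divided by those of the small subunit gave 1.34, 1.35, 1.29 and 1.29 in TEpos (1.32 ± 0.0312, SD, n = 4) and 1.22, 1.33, 1.34 and 1.25 in TEneg (1.29 ± 0.0588). BEneg gave 1.13, 1.10, 1.11 and 1.16 (1.12 ± 0.0232) and BEpos 1.10. Every BEneg sum lies below every tumour sum, and as a score over the members the ratio was given no test. The ratio was 1.09 in the BEneg wells at or above 5% neutrophil transcripts (1.01, 1.16, 1.135 and 1.11 by library). In those below it was 1.13 (1.17, 1.08, 1.11 and 1.17 by library). It was higher below the limit in libraries 1 and 4 and lower in libraries 2 and 3. The part of the neutrophil-rich wells in the ratio was not tested. In BEneg against TEpos the median log2 fold change was -0.43 over 41 large and -0.21 over 31 small subunit members. In TEneg against TEpos it was -0.19 and -0.18.

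**Figure D4:**
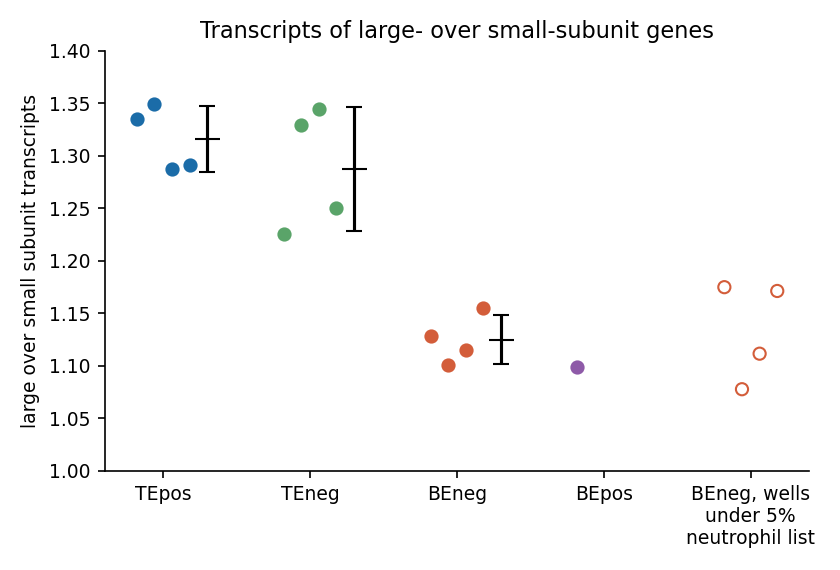
Large subunit transcripts divided by small subunit transcripts, with 1 point per library of TEpos, TEneg, BEneg and BEpos, the mean and SD beside them, and open points for BEneg wells under 5% neutrophil-list transcripts; the vertical axis starts at 1. All BEneg points lie below the lowest tumour sum, at 1.22.

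BEpos was present in 1 library, so its values have no replicate check. Of the 75 members with at least 20 transcripts in the pair, 12 were at least 2-fold higher and 1 lower than in TEpos of that library, beside 20.9% higher and 26.8% lower of all genes. The median log2 ratio was 0.58 over the members and -0.16 over all genes. Rps29, a zinc-binding protein of the small subunit's head, was at 105.5 per 10000 in BEpos and 36.04 in TEpos, a ratio of 2.93 (exact Poisson 95% interval 2.51 to 3.42, counting error only). Rps15a stood at a ratio of 2.69 (1.92 to 3.93), and Rps24, Rps23, Rps16, Rps20, Rps12, Rpl21, Rps21, Rpl12 and Rpl8 between 2.35 and 2.04, and 8 of the 12 belong to the small subunit. Rps27l was the exception, with 11 transcripts against 43 in TEpos and a ratio of 0.202 (0.0944 to 0.400). Rpl24, Rpl27 and Rpl41 stayed near TEpos, at ratios of 0.88, 0.86 and 0.90.

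Against TEneg, 19 of 73 members were at least 2-fold higher in BEpos and Rps27l lower (ratio 0.218), beside 22.6% higher and 22.8% lower of all genes. Rps24 and Rps29 led, at 3.24 and 2.83. Against BEneg, 50 of 72 members were at least 2-fold higher and 0 lower, beside 23.6% higher and 21.5% lower of all genes, with a median log2 ratio of 1.18 over the members and -0.11 over all genes. Rpl19 had the highest ratio, 6.23, from 19 transcripts against 1 (interval 0.987 to 258). Rpl12 and Rps24 followed at 5.12 and 4.99, while Rps9 at 1.35 and Rpl29 at 1.06 were close to BEneg. Each of the 20 BEpos wells lay between 22.4 and 47.6% ribosomal protein transcripts, with a median of 37.2%. Across these wells the share had a Spearman correlation of -0.657 with the monocyte and macrophage list, -0.609 with the leukocyte list and -0.478 with the lymphocyte list. With the neutrophil list it was -0.177, and 0.0015 with that list taken out of the total. These points share 1 library and a total, and the part of leukocyte transcripts in the BEpos values was not tested.

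Single members were also compared between wells of 1 population. After wells were thinned to 500 transcripts, the variance divided by the mean over 60 members had a median of 1.05 in TEpos, 1.09 in TEneg, 1.10 in BEpos and 1.28 in BEneg, where counting alone gives about 1 and thinning moves the value towards it. The highest value in BEneg was 2.18 and in BEpos 2.62, both for Rps20.

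Experiment (i) gave a like family share from another pattern of members. The share was 18.9% in library 1 (95% Clopper-Pearson interval 18.81 to 19.04) and 17.7% in library 2 (17.40 to 17.97), below the TEpos mean of 21.98%, while the only well of library 3 that passed 500 transcripts held 1.48%. Library 2 also held more markers of other cells than library 1: the basal list was at 0.369 against 0.00941%, the monocyte and macrophage list at 0.426 against 0.0118%, the leukocyte list at 0.266 against 0.0285% and the endothelial list at 0.127 against 0.0168%. Its epithelial list was at 0.381 against 0.940%, so its markers go in part against the label, and the values of both libraries are therefore given apart. The tables were made separately, so levels set across them are a description. Among the populations of the larger experiment the members' profiles correlated at Spearman 0.847 to 0.964 over 83 members. The 2 libraries of experiment (i) correlated at 0.902 with each other and at 0.432 to 0.720 with those populations. Of 78 members with at least 20 transcripts, 2 were at least 4-fold higher in both libraries than in each TEpos sum and 3 lower, beside 16.6% higher and 1.07% lower of all genes.

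Rpl31 was at 15.1 and 17.99 per 10000 in experiment (i) and at 0 to 0.332 in TEpos. Its pseudogene Rpl31-ps12 was counted in both experiments, at 37.3 and 32.1 in experiment (i) and 24.8 in TEpos. The end of the Rpl31 transcript that was checked shares no window with another gene, but the tagged end may differ. Whether reads were placed differently between Rpl31 and its pseudogene was not tested. Rpl19 was at 24.9 and 21.7 against 1.82 to 5.13 in TEpos. Lower in experiment (i) were the stalk protein Rplp2 (1.43 and 0.430, against 7.11 to 10.03 in TEpos), Rps27l (1.70 and 0.143, against 7.28 to 12.1) and Rps27 (0.0229 and, in library 2, not listed, against 1.51 to 3.003). Experiment (i) and TEpos are both labelled Ecadherin positive tumour cells, and the part of library preparation, cell choice and counting in these gaps was not tested.

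**Figure D5:**
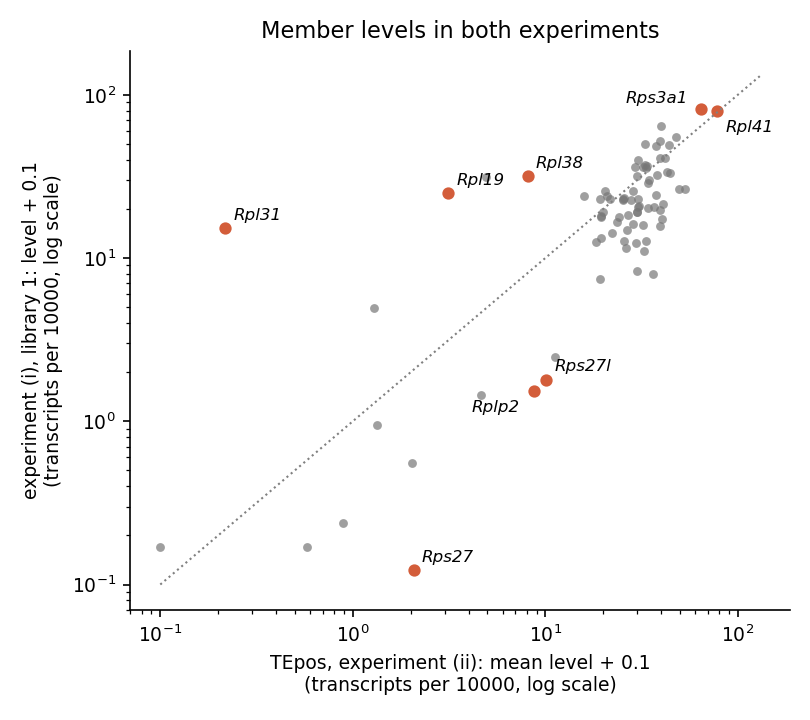
Level of each member in experiment (i) library 1 against its mean over the 4 TEpos sums, in transcripts per 10000 with 0.1 added on log axes, and a dotted line of equal levels. Rpl31 and Rpl19 lie far above the line, and Rplp2, Rps27 and Rps27l lie far below it.

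Other genes of translation were taken from lists, and most were too low to test. Fau, which encodes the small subunit protein S30 fused to a ubiquitin-like protein and falls outside the symbol rule, was at 7.62 ± 0.505 per 10000 in TEpos (SD, n = 4) and 4.202 ± 1.28 in TEneg, with 11.9 ± 0.469 in BEneg and 16.4 in BEpos. It was higher in BEneg than in TEneg by 1.57 (SE 0.28, edgeR adjusted p = 4.1e-05) and than in TEpos by 0.95 (SE 0.25, adjusted p = 0.00315), the same direction as Rps9. Rpl36al was lower in BEneg than in TEpos (-0.72, adjusted p = 0.0488). Of the 6 elongation factors measured 4 were tested, of 28 initiation and poly(A)-binding factors 5, of 16 ribosome biogenesis genes 1 and of 6 nascent chain factors and partners 1, and edgeR called 0 of these 11 tested genes in any comparison. At an unadjusted p under 0.05 there were 0 in TEneg against TEpos, 1 in BEneg against TEneg and 2 in BEneg against TEpos. Of 74 mitochondrial ribosomal proteins 1 was tested, Mrpl33, which was higher in BEneg by 2.04 against TEneg (adjusted p = 0.000139) and 1.51 against TEpos (adjusted p = 0.00105). None of the 4 growth control genes measured was tested.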

How the data were processed

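The authors deposited, for each well and gene, an estimated count of molecules with no scaling between wells. All values fit a saturation estimate, in which the molecules behind the barcodes seen are worked out from the 256 molecular barcodes that 4 bases allow, and 20 members passed 128 barcodes, all in 1 well. BWA 0.6.2-r126 and the build mm10 are named in the submitters' processing notes. The sources used here do not give how reads were counted or how shared reads were placed. Per the labels' protocols, single cells were sorted by FACS into Trizol and sequenced paired-end.

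Wells with at least 500 transcripts were used, without the 73 spike-ins, and no doublet caller was run on sorted wells. Sums per library and population (at least 3 wells) were rounded to whole numbers. No pair of sums of 1 population was a copy, with chi-square values of 1.87 to 4.35 per degree of freedom. TEpos, TEneg and BEneg entered 1 fit in edgeR 4.0.16 (filterByExpr, quasi-likelihood test, TMM, library as a block) under R 4.3.3, and p-values were adjusted by Benjamini-Hochberg over 490 genes. This filter left 72 members, since Rpl10l, Rpl19, Rpl22, Rpl26, Rpl30, Rpl31, Rpl34, Rpl39l, Rpl7l1, Rps27 and Rps4y2 did not pass it. A second fit used the ribosomal protein total as library size. Populations share libraries by design, which gives the pairing, and deviations within a library correlated at 0.0619 to 0.354. Alternatives used limma 3.58.1, DESeq2 1.42.0, other filters and scalings, no block and each library left out.

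Named members were those called (up to 12 per comparison), the 3 highest and 3 lowest fold changes, the 6 most abundant, paralog pairs, and members past 2-fold in BEpos. Some genes that the rule names are not reported here. Members outside this rule that are named were chosen after their values were seen. Members, lists and tests were chosen with earlier results of these data known. The scripts were tested on simulated data. All value columns were used (0 left out).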

Additional observations from a re-analysis of the deposited data

Results flagged for a closer look

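Single sums stood apart from the other 3 of their population in 6 of 108 groups of 4 libraries tested, and chance gives about 1 in 20. TEneg of library 4 was far below the other TEneg sums for Rpl39 (5.25 transcripts per 10000) and for Rpl10a (9.93), and the call of Rpl39 was lost without library 4, as without each other library. The other 4 are members with few transcripts: Rpl10l in TEpos of library 3 (0.332) and in TEneg of library 2 (0.0912), Rpl7l1 in TEpos of library 2 (1.82) and Rpl39l in BEneg of library 4 (0.897).

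Data outside the comparisons also held ribosomal protein signal. The 6 pseudogene rows summed to 2812 transcripts in the used wells of the larger experiment. The 92 wells under 500 transcripts of that experiment had a ribosomal protein share of 14.4%, and the 95 such wells of experiment (i) library 3 a share of 16.1%, while the only larger well of that library was at 1.48%.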

How the results depend on the processing

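Both the number and the direction of member calls moved with the settings. BEneg against TEneg, with 3 higher and 6 lower, became 7 and 0 without neutrophil-rich wells and 6 and 3 with wells of at least 1500 transcripts. BEneg against TEpos, with 3 and 22, became 6 and 6 and then 5 and 6. In TEneg against TEpos the count of 1 became 0 without the library block, with wells of at least 1500 transcripts, with DESeq2, with limma on well means and with each library left out in turn (0 to 0), 2 without the largest well, 4 with plain totals and 13 with no filter. Calls over all genes there went from 34 of 490 to 20 without the block, 23 with DESeq2 and 35 with limma on means. They were 39 with plain totals, 62 of 485 without the largest well and 99 of 11431 with no filter. In BEneg against TEneg the count of 9 became 4 without the block, 4 with no filter, 3 with DESeq2, 20 with plain totals, 43 with limma on means and 3 to 10 with a library left out. Over all genes the 200 became 186 without the block, 173 with DESeq2, 219 with plain totals and 266 with limma on means. They became 461 of 11431 with no filter and 169 to 223 with a library left out. In BEneg against TEpos the count of 25 became 14 without the block, 48 with no filter, 11 with wells of at least 1500 transcripts, 13 with DESeq2, 49 with plain totals, 61 with limma on means, 12 without neutrophil-rich wells and 16 to 23 with a library left out (16 without library 2). Over all genes the 236 became 210 without the block, 201 with DESeq2, 292 with plain totals and 311 with limma on means. They became 581 of 11431 with no filter and 193 to 258 with a library left out. Plain totals shift the median of all genes to -0.14, -0.24 and -0.39 in the 3 comparisons, from -0.01, -0.05 and -0.08, and the members' calls split 0 higher to 4 lower, 1 to 19 and 1 to 48. On the ribosomal protein total, the 8 members of BEneg against TEneg became 2 with no filter and 2 to 10 with a library left out (5 without library 1, 2 without library 2), and the 15 of BEneg against TEpos became 7 with no filter and 8 to 16 with a library left out (8 without library 1). Over all genes, this scaling called 198 and 211 of 490 in these 2 comparisons, and 446 and 540 of 11431 with no filter. With a library left out it called 162 to 214 and 174 to 235. The share differences ran from -4.76 to -3.40, from -2.93 to -1.59 and from -7.69 to -5.70 percentage points with a library left out. BEneg less TEneg became 0.489 with wells of at least 1500 transcripts (2 libraries), 3.46 without neutrophil-rich wells and -5.41 as a mean of well shares, and BEneg less TEpos became -0.652 without neutrophil-rich wells. The cause of these moves was not tested. Signs turned in 11 of 647 values of single genes: with no filter, Rpl7 (-0.16), Rps12 (-0.25) and Rpl4 (-0.28) in TEneg against TEpos and Rps12 (-0.11) and Rps16 (-0.12) in BEneg against TEpos. With plain totals, Rps12 (-0.0016) and Rpl4 (-0.0406) turned in TEneg against TEpos, and Rps12 without replicate 1, with a range from -0.0048 to 0.25 over the libraries left out. With limma on means, Rps23 in BEneg against TEneg (-0.0533) and Rps12 (-0.0175) and Rps16 (-0.0634) in BEneg against TEpos turned. Depth limits BEneg most, with 11172 to 25379 transcripts per sum.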
